A study of Mus musculus with 10 samples.

Results

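The Hedgehog signalling genes examined here were Smo, Ptch1, Gli1, Gli2, Gli3, Sufu, Hhip, Boc and Cdon. They were taken by gene name, with every Ensembl transcript that the count files list for them, and the set was put together because earlier values from these same cultures had shown few Smo footprints after KCl. Of the 9 genes, 7 were analysed through 11 of the 22534 transcripts listed, and Ptch1 and Boc were not analysed here. Of the 7, 5 genes (Smo, Cdon, Sufu, Gli2 and Gli3) with 9 transcripts held enough reads for the fits, and Gli1 and Hhip are given as read counts alone.

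The cells came from the cortex of newborn (P0) FVB pups, and neurons and glia were grown together for 7 days. The 3 untreated cultures, numbered 1 to 3, were set against 2 cultures, numbered 4 and 5, that received KCl at 55 mM for 3 h, which depolarizes neurons. All 5 cultures, controls included, received cycloheximide at 100 ug/ml for 7 min before lysis, an agent that holds ribosomes on the mRNA. From each lysate, RNAseq measured transcript abundance and ribosome footprinting (RF) measured the fragments that ribosomes protect. Such a mixture limits what a bulk value can say, because fewer cells of a type and less RNA per cell cannot be told apart, and no source used here says whether the cultures came from separate litters.

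In the Hedgehog pathway, a secreted ligand binds the receptor Ptch1, aided by the coreceptors Cdon and Boc, and thereby releases the seven-pass membrane protein Smo from inhibition. Active Smo, which works in the primary cilium, frees the Gli transcription factors from Sufu. Gli2 acts mainly as an activator, Gli3 is processed largely into a repressor, and Gli1 and Ptch1 are themselves target genes. In the postnatal cortex, astrocytes are known to respond to Shh made by neurons.

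Among the members tested, Smo had the largest gap between mRNA and footprints in the KCl cultures. Its mRNA was 1.21-fold lower, whereas footprints on its coding sequence (CDS) were 6.17-fold fewer and its 5′UTR held 45.7% of the remaining footprints in place of 20.1%. Gli2 was lower in both mRNA and footprints, Cdon was lower mainly in footprints, Gli3 was slightly higher in both, and Sufu was near its untreated level. Since the set was chosen with these KCl values known, they are given as a description and without p-values. Where a member value below is said to pass or not pass a threshold, this too describes the fit and is not a test.

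RNAseq libraries held 3056286 to 3629959 reads and RF libraries 1463654 to 7719915, with the shallowest RF libraries in untreated culture 3 and KCl culture 4. The mRNA of Nr4a2, an immediate early gene, rose by a log2 fold change of 5.24 with KCl (SE 0.21, edgeR adjusted p = 3.3e-39), and that of Fos rose by 1.65 (SE 0.18, edgeR adjusted p = 1.04e-12). The summed RNAseq level of 8 astrocyte markers, led by Gfap, was 10319 to 11338 reads per 1000000 counted (CPM) in untreated and 9355 to 9645 CPM in KCl cultures. The 7 neuron markers analysed, Snap25 and Rbfox3 among them, summed to 371 to 519 CPM and 488 to 493 CPM. RNA of both cell types was thus present in the libraries of these mixed cultures.

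The sequences around the start codons are shown because a larger share of Smo footprints lay upstream of its CDS with KCl. Smo, the transducer of the pathway, is encoded on the plus strand of chromosome 6 (GRCm38, chr6:29735694-29761365) in 12 exons, with a 5′UTR of 317 nt, a CDS of 2382 nt and a 3′UTR of 1080 nt. Its 5′UTR holds 2 upstream ATGs, at bases 5 and 117 of the transcript. In the GENCODE transcript sequences below, given 5′ to 3′, capitals mark the ATG.
Smo, CDS start: ggctgtttggccATGgccgctggccgc
Smo, first upstream ATG: gggaATGgggctggagatc
Smo, next upstream ATG: gcgctgctcaacATGgggcccgggttc
Cdon, CDS start: taattgggcgatATGcatccagacctc
Sufu, CDS start: ctacgcgccccaATGgcggagctgcgg
Gli2, CDS start: tgagcctctgagATGgagacttctgcc
Gli3, CDS start: tgagaagacattATGgaggcccaggcc

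All 3 Smo ATGs had the purine and the G that flank a strong initiation context. The reading frames opened by the upstream ATGs ran for 13 and 35 codons and ended before the CDS. The 5′UTR GC content of Smo was 69.1% against a median of 64.9% over 10340 genes, its length of 317 nt stood against a median of 185 nt, and 29.7% of these genes had at least 2 upstream ATGs. Gli2 had 4 upstream ATGs, Gli3 and the longer Cdon transcript had 2 each, and no Sufu transcript had any. The count of upstream ATGs therefore did not set Smo apart within the set. Over all genes, the median log2 fold change of translation efficiency with KCl was -0.07 for the 3076 genes with at least 2 upstream ATGs and 0.07 for the 4954 with none.

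In untreated cultures, Smo combined an abundant mRNA, counted over all its regions, with CDS footprints slightly below the median of 13.9 RPKM. Levels between genes are compared per length, as RPKM, which is the normalized read count (CPM) divided by the kilobases of the transcript (RNAseq) or of its CDS (RF), and translation efficiency (TE) is the ratio of RF to RNAseq RPKM in a culture. Smo mRNA was at 37.2 ± 1.29 RPKM (SD, n = 3), above 88.4% of the 10373 genes tested. Its CDS footprints were at 11.5 ± 1.54 RPKM, above 44.7% of genes.
The Smo TE was 0.286, 0.278 and 0.368 in untreated cultures 1, 2 and 3. Their mean of 0.310 ± 0.0497 lay above only 2.19% of genes, for which the median was 1.97. In the same cultures, TE was 0.766 ± 0.0282 for Gli2, 0.881 ± 0.0790 for Gli3, 1.33 ± 0.0700 for the longer Cdon transcript and 3.02 ± 0.202 for the longest Sufu transcript (SD, n = 3 each). The order of these means was Smo, Gli2, Gli3, Cdon, Sufu, and the ranges of the 3 cultures did not overlap between any neighbours in it.

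**Figure D1:**
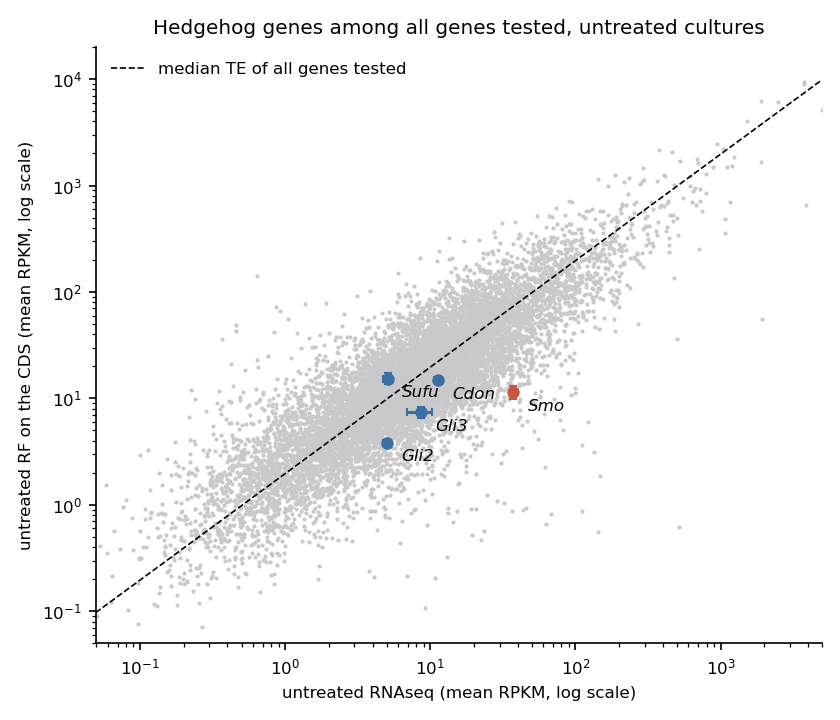
Mean untreated RNAseq level (x axis, RPKM, log scale) against mean untreated RF level on the CDS (y axis, RPKM, log scale) for each gene tested (grey), with 5 Hedgehog genes (coloured, error bars SD over 3 cultures) and the median TE (dashed line). Smo, at 37.2 RPKM of RNAseq and 11.5 RPKM of RF, lies farthest below the line among the 5 genes, and Sufu lies above it.

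The place of Smo at the bottom of that order depended on which RNAseq reads were used. RNAseq reads on the Smo 3′UTR made up 71.7% of its reads over all cultures although the 3′UTR is 28.6% of its length, against medians of 48.4% of reads and 38.7% of length over all genes. With RNAseq reads of the CDS alone, an alternative chosen after seeing the data, the untreated TE of Smo was 0.805 ± 0.0707 (SD, n = 3), above 8.48% of genes. On that scale Gli2 was at 0.766 ± 0.0495 and Gli3 at 0.718 ± 0.0619, with ranges that overlapped that of Smo. Cdon was at 1.78 ± 0.466, and Sufu was at 7.52 ± 1.75 in place of 3.02. This Sufu value rested on 9, 14 and 7 RNAseq CDS reads in untreated cultures 1, 2 and 3. With reads of all regions and RPKM summed over its transcripts, which counts shared reads more than once, Sufu was at 6.18. Smo was thus in the low tail of TE on both scales, but the lowest of the 5 genes on the first alone.

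With KCl, Smo mRNA was slightly lower. RNAseq levels were 146, 140 and 136 CPM in the untreated cultures and 114 and 118 CPM in the KCl cultures. Both KCl cultures lay below all untreated cultures, by a log2 fold change of -0.28 (SE 0.15) that did not pass the threshold of an adjusted p under 0.05. With library totals in place of TMM normalization it was -0.41 and passed it.

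Footprints on the Smo CDS differed far more. Ribosomes left 197, 156 and 44 CDS footprints without KCl (cultures 1, 2 and 3), and 5 and 14 with it (cultures 4 and 5). Scaled to depth, these were 26.2, 24.4 and 31.5 CPM against 3.62 CPM (exact 95% interval of the count, 1.18 to 8.45) and 5.26 CPM (2.88 to 8.83). The groups did not overlap, and the upper interval bounds of both KCl cultures lay below the lower bounds of all untreated cultures, although these intervals cover counting error only.
The log2 fold change was -2.49 (SE 0.31) for RF, which placed Smo at position 194 from the lowest of 18284 transcripts. TE, which shares its footprints with RF, was 0.0506 and 0.0706 in the KCl cultures, and its log2 fold change was -2.23 (SE 0.36), position 181 from the lowest. When each culture was left out in turn, the TE value ranged from -2.56 to -2.08. With RNAseq reads of the CDS alone it was -2.29. Since Smo was chosen on these counts, refitting them describes the value and does not test it.

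**Figure D2:**
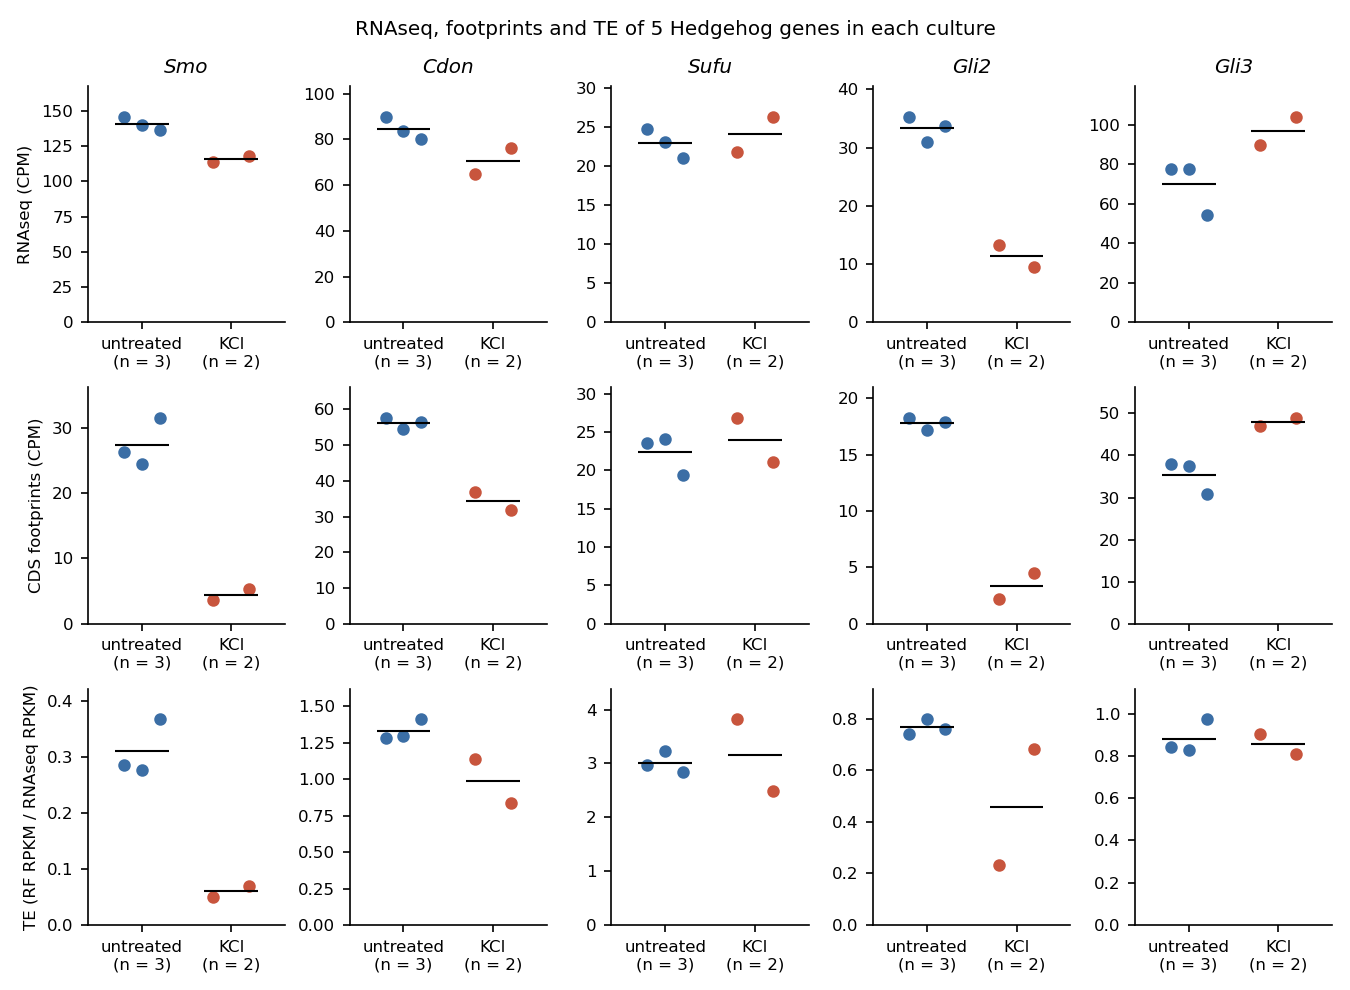
RNAseq (top row, CPM), CDS footprints (middle row, CPM) and TE (bottom row, ratio of RPKM) of Smo, Cdon, Sufu, Gli2 and Gli3, each point 1 culture and each bar the group mean, with linear axes that start at 0. Smo CDS footprints were at 24.4 to 31.5 CPM in 3 untreated and 3.62 to 5.26 CPM in 2 KCl cultures, while its RNAseq stayed between 114 and 146 CPM.

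The 5′UTR of Smo did not lose footprints in proportion. Without KCl it held 67, 22 and 11 footprints, and with KCl 7 and 9, or 8.92, 3.45 and 7.87 CPM against 5.07 and 3.38 CPM. These levels overlapped between the groups. The share of Smo footprints that lay on the 5′UTR was 25.4%, 12.4% and 20% without KCl, and 58.3% and 39.1% with it, so that both KCl cultures exceeded every untreated culture. The exact 95% intervals were 27.7 to 84.8% in KCl culture 4 and 19.7 to 61.5% in KCl culture 5. Both overlapped those of untreated cultures 1 (20.2 to 31.1%) and 3 (10.4 to 33.0%), but not that of culture 2 (7.91 to 18.1%).
Pooled over the cultures of a group, the share was 20.1% (100 of 497 footprints, exact 95% interval 16.7 to 23.9%) without and 45.7% (16 of 35, 28.8 to 63.4%) with KCl. These pooled intervals cover counting error only. They are too narrow for a comparison of the groups, because the intervals of untreated cultures 1 and 2 did not overlap each other. Over all transcripts tested, the 5′UTR share of a library was 5.71 to 8.14%. Among 8529 genes with at least 20 footprints in each group, the median difference was 0.0903 percentage points. The difference of Smo was 25.6 points, and 49 genes, Smo included, had a difference at least that large. Whether the 5′UTR footprints sat on either upstream ATG cannot be read from counts per region.

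**Figure D3:**
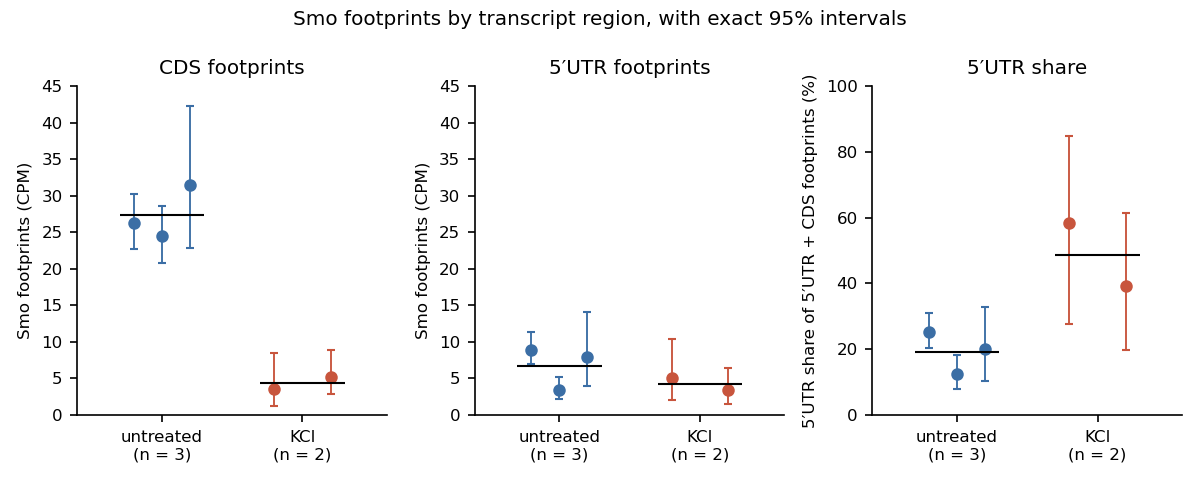
Smo footprints on the CDS (left, CPM), on the 5′UTR (middle, CPM, same scale) and the 5′UTR share of both (right, percent), each point 1 culture with its exact 95% counting interval and each bar a group mean. The CDS values separate the groups, the 5′UTR values do not, and the share is 12.4 to 25.4% in untreated and 39.1 to 58.3% in KCl cultures.

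In the other 4 genes tested, most footprints lay on the CDS in both groups. The pooled 5′UTR share without and with KCl was 6.85% and 6.25% for Gli2, 5.02% and 4.41% for Gli3, 4.28% and 2.11% for Sufu, and 3.16% and 6.21% for the longer Cdon transcript. In each of these genes the exact intervals of the groups overlapped. Gli2 had 1 5′UTR footprint and 15 CDS footprints in the KCl cultures, which allowed a share of up to 30.2%.

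Cdon, a coreceptor of the ligand, has 2 transcripts on the plus strand of chromosome 9 (chr9:35421558-35507652 for the longer) whose CDS footprints were the same reads, so that they count as 1 measurement. RNAseq levels of the longer transcript were 89.9, 83.9 and 80.2 CPM without and 64.8 and 76.3 CPM with KCl, a log2 fold change of -0.26 (SE 0.16). CDS footprints were 57.5, 54.5 and 56.6 CPM without and 36.9 and 32.0 CPM with KCl. The KCl cultures lay below all untreated cultures on both measures, and the RF log2 fold change was -0.73 (SE 0.17). It passed the threshold with all cultures and no longer did without KCl culture 5, where it was -0.60. The TE log2 fold change was -0.46 (SE 0.26) and did not pass.

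Sufu, the cytoplasmic inhibitor of the Gli factors, has 4 transcripts on the plus strand of chromosome 19 that share most of their CDS footprints. The longest (chr19:46396896-46488804) was at 24.7, 23.2 and 21.1 CPM of RNAseq without and 21.8 and 26.3 CPM with KCl. Its CDS footprints were 23.6, 24.1 and 19.3 CPM without and 26.8 and 21.1 CPM with KCl. The groups overlapped on both measures, with log2 fold changes of 0.07 (SE 0.24) for RNAseq, 0.02 (SE 0.22) for RF and -0.01 (SE 0.34) for TE. With library totals the RNAseq and RF values were -0.07 and -0.16, of opposite sign. The other 3 transcripts had between 2 and 27 RNAseq reads per library and did not pass on any measure.

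Gli2, the main activator, lies on the minus strand of chromosome 1 (chr1:118834132-119053619) and was lower at the mRNA level. RNAseq levels were 35.3, 31.0 and 33.7 CPM without and 13.3 and 9.49 CPM with KCl, a log2 fold change of -1.55 (SE 0.26). There were 137, 110 and 25 CDS footprints without and 3 and 12 with KCl, which correspond to 18.2, 17.2 and 17.9 CPM against 2.17 CPM (exact 95% interval 0.448 to 6.35) and 4.51 CPM (2.33 to 7.88). Both measures separated the groups, and the RF log2 fold change was -2.26 (SE 0.35).
TE of Gli2 was 0.741, 0.796 and 0.761 without and 0.234 and 0.681 with KCl. The 2 KCl cultures differed from each other more than culture 5 differed from the controls, and the value of culture 4 rested on 3 footprints. The TE log2 fold change was -0.69 (SE 0.50) and did not pass, and it was -0.17 without culture 4 and -1.69 without culture 5.

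Gli3, the main repressor, lies on the plus strand of chromosome 13 (chr13:15463980-15730026) and was at 77.8, 77.6 and 54.4 CPM of RNAseq without and 89.7 and 104 CPM with KCl. Its CDS footprints were 38.1, 37.4 and 30.8 CPM without and 47.1 and 48.9 CPM with KCl. The KCl cultures were higher on both measures. The log2 fold changes were 0.47 (SE 0.16) for RNAseq, which passed the threshold, 0.40 (SE 0.17) for RF, which did not, and -0.03 (SE 0.26) for TE. The RNAseq value no longer passed with DESeq2, library totals, reads summed over a gene or RNAseq reads of the CDS alone. It also no longer passed without untreated culture 3, where it was 0.32, or without KCl culture 5.

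Gli1 and Hhip were near the limit of detection on RNAseq. Gli1, itself a target gene whose level is often read as pathway output, had 0 to 3 RNAseq reads per library and 1 CDS footprint in all 5 RF libraries. All these counts are at or under the floor of 3 counts, and no difference could be measured at this depth. Hhip, a membrane protein that binds and sequesters the ligand, had 2, 0 and 0 RNAseq reads without and 1 and 1 with KCl, but 20, 12 and 3 CDS footprints without and 5 and 11 with KCl. Scaled to depth, these footprints were 2.66, 1.88 and 2.15 CPM against 3.62 CPM (exact 95% interval 1.18 to 8.45) and 4.14 CPM (2.06 to 7.40). The KCl cultures lay above the untreated ones, but their intervals overlapped. Its exons overlap those of Gm27820, and exons of Gli1 overlap those of Arhgap9 and Gm47200, so that reads of these genes are uncertain.

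**Figure D4:**
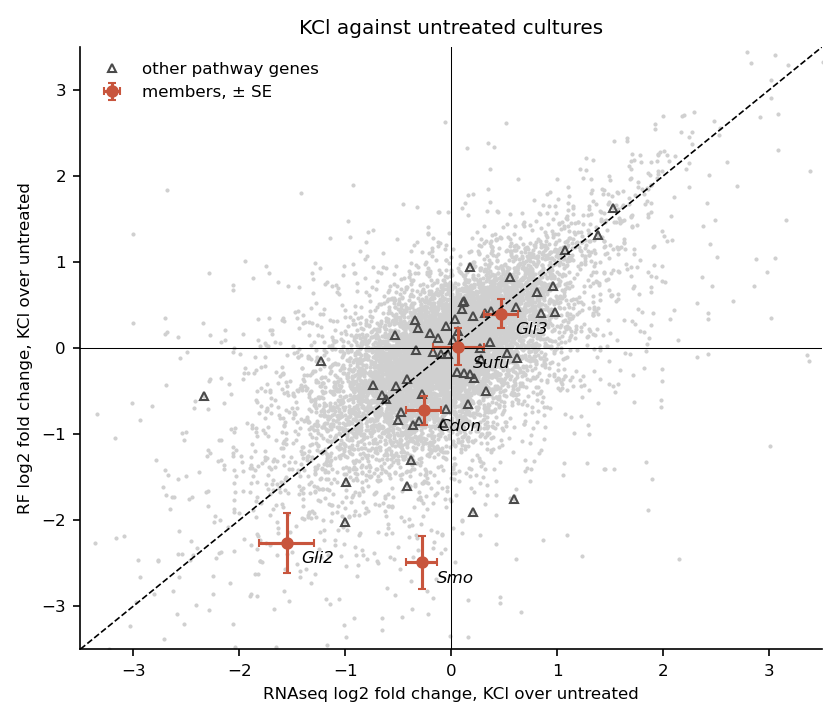
RNAseq log2 fold change (x axis) against RF log2 fold change (y axis), KCl over untreated, for all genes (grey), 60 other pathway genes (triangles) and 5 Hedgehog genes (red, error bars SE), with 85 genes beyond the axes and equal change marked by the dashed line. Smo lies near -0.28 on the x axis and -2.49 on the y axis, Gli2 is low on both, and Gli3 and Sufu lie near the dashed line.

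Of the 9 member transcripts tested, 2 passed the threshold for RNAseq (Gli2 lower, Gli3 higher), where 22.0% of all transcripts passed. For RF, 4 passed, all lower (Smo, Gli2 and both Cdon transcripts with the same reads), beside 29.5% of all transcripts. For TE, 1 passed (Smo, lower), beside 2.37% of all transcripts. Because the genes were chosen on this contrast, nothing is read from these counts. The median log2 fold change over all transcripts was -0.02 for RNAseq, -0.02 for RF and 0.01 for TE. With library totals in place of TMM these medians were -0.16, -0.20 and -0.03, and the share of higher values among calls was 35.8% in place of 54.4% for RNAseq and 30.4% in place of 52.9% for RF.

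The genes whose pattern was most like that of Smo over the 10 libraries are given as a description, since likeness to Smo over the same libraries favours genes with fewer footprints in the KCl cultures. Likeness was Pearson's r of log2 CPM, centred within each assay, over 6414 candidate genes, and the points share library and depth. The 5 highest values were Ube3b (r = 0.984), 2610507B11Rik (0.983), Hdac7 (0.982), St3gal2 (0.978) and Slc25a51 (0.974). Their RF log2 fold changes ran from -1.66 for 2610507B11Rik to -0.95 for Slc25a51, none as low as that of Smo, and their RNAseq log2 fold changes ran from -0.33 for St3gal2 to -0.04 for 2610507B11Rik.

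The rest of the pathway was described with lists of 72 further genes, of which 60 were tested, each by its transcript with the most RNAseq reads. For RNAseq, 10 rose and 8 fell (30.0%, where 23.3% of all genes passed). For RF, 12 rose and 13 fell (41.7%, where 30.1% passed), and for TE 2 passed, both lower (3.33%, where 2.47% passed). The median log2 fold change of the 60 genes was 0.04 for RNAseq, -0.06 for RF and -0.08 for TE, beside -0.03, -0.01 and 0.02 over all genes. Only 15 of the 30 genes that passed on at least 1 measure are named with values here, those with the largest change.

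Among ligand genes, 7 of 9 were tested. Hhat, the acyltransferase that palmitoylates Shh, was the only gene of this list to pass on any measure. It fell in RNAseq by 2.33 on the log2 scale (SE 0.75, edgeR adjusted p = 0.0162), from 4.24 ± 1.84 CPM (SD, n = 3) to 0.800 ± 0.167 CPM (n = 2). Its values of 0.682 and 0.919 CPM in KCl cultures 4 and 5 were at or under the floor of 3 counts (1.02 and 0.919 CPM), so the size of the change is uncertain. Of 10 coreceptors and surface modulators tested, 2 fell in RNAseq. One was Gpr161, a ciliary receptor that restrains the pathway, at -1.23 (SE 0.46, edgeR adjusted p = 0.0435). In RF, 1 gene of the list rose and 3 fell.

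Among kinases and arrestins that act on Gli proteins or Smo, 16 were tested. Of these, 4 rose and 1 fell in RNAseq, and 4 rose and 4 fell in RF. Prkar1a, the regulatory subunit of protein kinase A, rose in RNAseq by 0.96 (SE 0.13) from 459 ± 57.9 to 891 ± 53.3 CPM, and rose in RF by 0.72 (SE 0.08). Csnk1d rose in RNAseq by 0.98 (SE 0.13) and Gsk3a by 0.85 (SE 0.23). Dyrk2, another kinase of Gli factors, rose in RF by 0.94 (SE 0.29).
Csnk1g2, a casein kinase that acts at the membrane on Smo, behaved otherwise. Its RNAseq log2 fold change of 0.20 (SE 0.16) did not pass, while its footprints fell from 12.1 ± 3.34 to 2.78 ± 0.856 CPM, an RF log2 fold change of -1.90 (SE 0.41). Its TE fell by 2.21 on the log2 scale (SE 0.43, edgeR adjusted p = 8.98e-05), close to the Smo value of -2.23. The KCl level of 2.78 CPM rested on few footprints, since the floor of 3 counts was 2.17 CPM in KCl culture 4 and 1.13 CPM in KCl culture 5. RF also fell for Ulk3, by 1.61 (SE 0.60) at 4.34 ± 0.893 CPM without KCl, and for Adrbk1 (now Grk2), the receptor kinase that phosphorylates active Smo, by 0.85 (SE 0.22).

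Of 6 genes tested for Gli degradation, 4 rose in RNAseq, and in RF 3 rose and 1 fell. The share was 66.7% in each assay, where 23.3% and 30.1% of all genes passed. Cul1, Itch and Rbx1 of this short list were not tested. Numb, an adaptor for the ubiquitin ligase that removes Gli1, rose by 1.39 (SE 0.18) in RNAseq, from 29.5 ± 4.25 to 77.4 ± 2.01 CPM, and by 1.32 (SE 0.16) in RF. Spop, the ligase adaptor that targets full-length Gli2 and Gli3, had an RNAseq log2 fold change of -0.08 (SE 0.16) that did not pass, and fell in RF by 0.87 (SE 0.22).
Of 12 ciliary genes tested, 1 rose and 2 fell in RNAseq, and 2 rose and 3 fell in RF. The shares of 25.0% and 41.7% stood beside 23.3% and 30.1% of all genes. Arl13b, a ciliary GTPase, rose in RNAseq by 1.07 (SE 0.28) and in RF by 1.14 (SE 0.22), whereas Inpp5e, a ciliary lipid phosphatase, fell in RF by 1.30 (SE 0.38).

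Genes known as Gli targets moved in both directions. Of 9 tested, 1 rose and 2 fell in RNAseq, and 2 rose and 2 fell in RF. The shares of 33.3% and 44.4% stood beside 23.3% and 30.1% of all genes. Hes1, a transcription factor better known as a Notch target, rose by 1.53 (SE 0.31) in RNAseq and 1.63 (SE 0.22) in RF. Bcl2, which restrains apoptosis, fell by 0.99 (SE 0.21) in RNAseq and 1.56 (SE 0.47) in RF. The Gli binding motif TGGGTGGTC was searched on both strands of a set of 300-base promoters (GRCm38.p6). It was absent from those of 7 member genes, and 83 of 32851 promoters (0.253%) held it. The promoter set had no entry for Gli1 and Boc, which were therefore not searched.

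**Figure D5:**
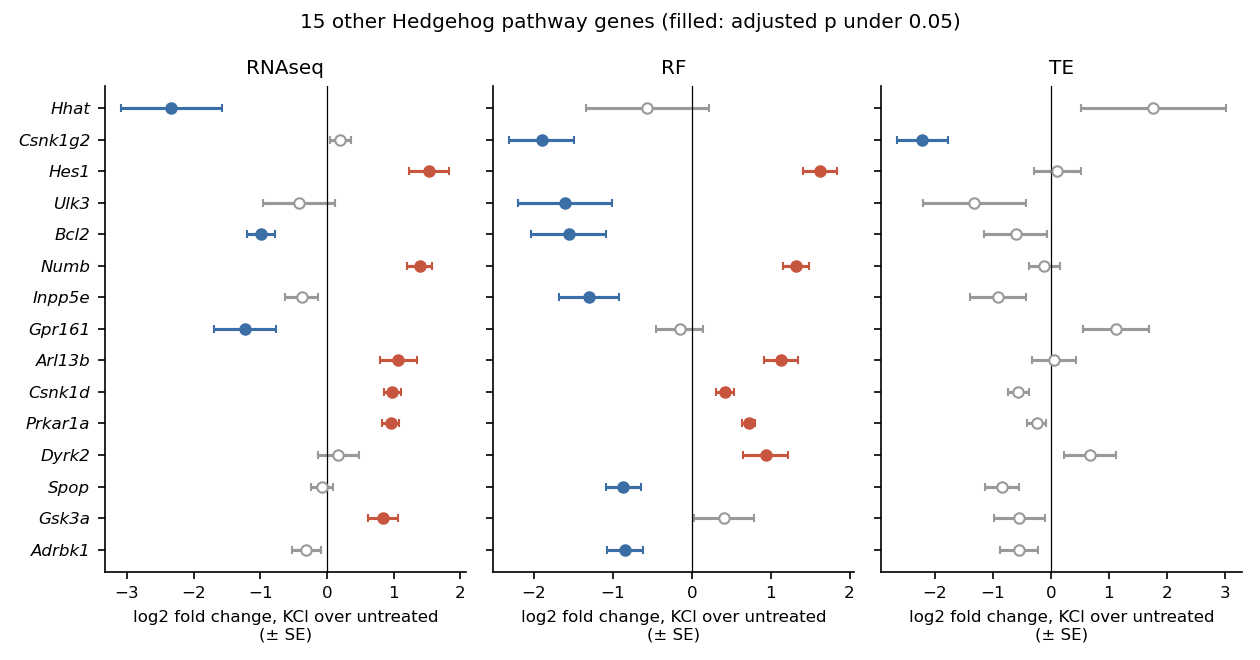
Log2 fold change (x axes, KCl over untreated, error bars SE) in RNAseq, RF and TE of the 15 other pathway genes with the largest change, filled in red (higher) or blue (lower) where the edgeR adjusted p was under 0.05 and open in grey where it was not. Csnk1g2 is low in RF and TE with an RNAseq value of 0.20, and Hes1, Numb and Arl13b are high in both RNAseq and RF.

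Of the 22 calls of these 15 genes, 11 held when each culture was left out in turn, among them those of Hes1, Numb and Prkar1a in both assays and of Csnk1g2 and Spop in RF. The RNAseq calls of Hhat and Gpr161 were each lost in 4 of 5 cases, with log2 fold changes of -2.66 to -2.13 and -1.38 to -1.02. Without KCl culture 4 or without KCl culture 5, the RF calls of Ulk3 (-1.26 and -2.60), Bcl2 (-1.27 and -2.31), Inpp5e and Dyrk2 were lost as well, that of Ulk3 also without untreated culture 2. Without KCl culture 5, the TE call of Csnk1g2 (-2.41), the RF calls of Csnk1d (0.37) and Adrbk1 (-0.72) and the RNAseq call of Gsk3a (0.53) were lost, and without KCl culture 4 the RNAseq call of Arl13b (0.76). With DESeq2, 6 of the 22 calls were lost, those of Hhat and Gpr161 in RNAseq and of Ulk3, Bcl2, Inpp5e and Dyrk2 in RF, at DESeq2 adjusted p-values from 0.0508 (Inpp5e) to 0.176 (Ulk3).

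Some cell type markers passed the threshold, where 23.3% of all genes passed in RNAseq, 30.1% in RF and 2.47% in TE. No change of a cell type is read from these calls. In RNAseq, Aqp4 was the only one of 8 astrocyte markers to pass (lower), while in RF 6 of the 8 rose. Of 5 progenitor and cycling markers, Nes and Sox2 fell and Pax6 rose in RNAseq, and the list summed to 370 to 399 CPM without and 311 to 341 CPM with KCl. Of 5 fibroblast and mural markers tested, Lum and Pdgfrb fell in RNAseq, and the list summed to 459 to 543 CPM and 389 to 438 CPM. Pdgfra was the only one of 6 oligodendrocyte lineage markers, and Cx3cr1 the only one of 5 microglia markers, to fall in RNAseq, and of the 7 neuron markers Gad1 alone rose. The 4 endothelial markers summed to 16.9 to 22.1 CPM without and 18.7 to 21.1 CPM with KCl. In RF, 2 of the 7 neuron markers rose (Snap25 and Stmn2), 2 of the 6 oligodendrocyte lineage markers rose, 3 of the 5 microglia markers rose and 1 fell, 2 of the 5 progenitor and cycling markers rose and 2 fell, and 1 of the 5 fibroblast and mural markers rose and 1 fell. In TE, Aqp4, Slc1a3 and Mki67 rose and Col1a1 fell. Whether the mix of cell types had a part in the lower Gli2 mRNA, in the lower Smo footprints and TE and in the other member values was not tested.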

How the data were processed

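The authors used Trimmomatic 0.32 for trimming and STAR 2.3.1z8 to take out rRNA reads, aligned the rest with Bowtie2 2.2.2 to the mm10 transcriptome, including reads with more than 1 match, and deposited raw counts of reads per transcript region from bedtools 2.20.1. Isoforms therefore share reads, and 4952 of 18530 transcripts with at least 10 CDS footprints have the same CDS counts as another isoform. Region letters were assigned from region lengths, and 1 region remains unnamed. For TE the authors also dropped positions near start and stop codons, which counts per region do not allow. Library depth is given with the results.

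From the deposited counts, RNAseq was the reads on all regions and RF those on the CDS. Of 22534 transcripts, 21836 (96.9%) were matched to GENCODE M21 (GRCm38). Transcripts with at least 10 RNAseq and 10 CDS RF reads over the 5 libraries of each assay were tested, 18284 in all. The quasi-likelihood test of edgeR 4.0.16 (R 4.3.3) was run with TMM normalization within each assay and Benjamini-Hochberg adjustment over all transcripts. TE was tested as an interaction term between assay and treatment, with culture as the replicate block, because RNAseq and RF of 1 number came from the same lysate. Correlations of RNAseq and RF deviations within cultures were 0.00572 to 0.0368. The SE is the absolute log2 fold change over the square root of F. p-values measure the spread between these cultures. Reads of overlapping genes were not separated.

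On simulated counts, with 200 of 18284 transcripts changed by 1.5 on the log2 scale, RNAseq recovered 81%, RF 75% and TE 40% of them. Of the calls, 5.26%, 5.06% and 6.98% were false. Every transcript was drawn with the same fixed dispersion and without pairing of the assays, so recovery in these libraries can differ. Alternatives were library totals, DESeq2 1.42.0, an RPKM minimum of 10, no filter beyond 1 read, gene sums, no block, leaving out each culture and, chosen after seeing the data, 1 transcript per gene and RNAseq reads of the CDS alone. Exact Poisson and Clopper-Pearson intervals at 95% cover counting error only. All 9 members are named. Of the other pathway genes that passed in any fit, the 15 with the largest absolute log2 fold change are named. The members and gene lists were chosen with earlier results of these data known.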

Additional observations from a re-analysis of the deposited data

How the results depend on the processing

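Of 176 log2 fold changes of the 5 member genes under an alternative, 153 stayed within 1 SD of the cultures, 23 moved further, and none that had passed the threshold changed sign. The RF and TE values of Smo stayed negative under every alternative run. Since the members were chosen on this contrast, such stability describes the fits and is no further support. The RNAseq value of Smo was -0.28 and became -0.41 with library totals and -0.35 with the RPKM filter. Leaving out 1 culture gave -2.86 to -2.33 for its RF and -2.56 to -2.08 for its TE, with the lowest values without KCl culture 5, which leaves KCl culture 4 and its 5 CDS footprints, a lone sample assumed to vary like the untreated cultures. Without the replicate block, TE of Smo was -2.21, and 397 transcripts passed in place of 434.

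The number of transcripts that passed for RNAseq, RF and TE was 4029, 5394 and 434. DESeq2 gave 3202 for RF and 169 for TE. The RPKM filter left 7333 transcripts and gave 2401 for RNAseq and 3007 for RF. Gene sums, in which reads shared by isoforms count more than once, gave 2129, 2758 and 159, 1 transcript per gene gave 2429, 3111 and 280, and RNAseq reads of the CDS alone gave 1987 for RNAseq and 250 for TE. Leaving out 1 culture gave 2368 to 4438, 2484 to 5576 and 51 to 568, with the fewest without KCl culture 4 for RNAseq and without KCl culture 5 for RF and TE. Of the 60 other pathway genes, 18, 25 and 2 passed. RNAseq reads of the CDS alone gave 7 for RNAseq, DESeq2 gave 15 for RF, the RPKM filter gave 16 for RF, and each of DESeq2, the RPKM filter, no filter beyond 1 read and gene sums gave 1 for TE. Leaving out 1 culture gave 8 to 18 for RNAseq, 13 to 27 for RF and 0 to 3 for TE. Fewer transcripts or samples enter with the filter, the gene sums, 1 transcript per gene and a culture left out. With RNAseq reads of the CDS alone, 17168 transcripts and fewer RNAseq reads enter. The cause of the other shifts was not tested. Depth limits the low counts most, with 3 to 14 CDS footprints per KCl library for Smo and Gli2.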
